A study of Mus musculus with 16 samples.

Results

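The genes described here are 34 genes of glucose use: the main glucose transporters, the glycolytic enzymes apart from Gapdh, lactate dehydrogenases and lactate transporters, the mitochondrial pyruvate carrier, and pyruvate dehydrogenase with its kinases and a phosphatase. The rule lists them by gene symbol, and all 34 were among the 49315 genes of the count table. All 34 also passed the filter on low counts, which kept 17469 genes for testing. RNA was sequenced from the hippocampus of 16 mice in a design that crossed genotype with diet. Wild-type and Kcna1 knockout mice each received either a standard or a ketogenic diet, which made 4 groups of 4 animals: standard-diet wild type, standard-diet knockout, ketogenic-diet wild type and ketogenic-diet knockout. Kcna1 codes for a subunit of a neuronal potassium channel, and loss of the gene causes seizures in mice. A ketogenic diet supplies mostly fat and little carbohydrate. The labels gave no strain, age, sex or time on the diet, and did not describe the knockout allele. P-values measure the spread between animals within groups, estimated for each gene over the 4 groups together and drawn towards that of other genes. A spread that differs between groups is therefore averaged.

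Glucose enters the brain through the transporter of the barrier endothelium and astrocytes, GLUT1 (Slc2a1), and enters neurons mainly through GLUT3 (Slc2a3). Glycolysis turns it into pyruvate, which either is exchanged with lactate by lactate dehydrogenase or enters mitochondria through the pyruvate carrier and is oxidised by pyruvate dehydrogenase. Pyruvate dehydrogenase kinases switch that complex off and its phosphatases switch it on. On a ketogenic diet ketone bodies made in the liver replace part of the glucose as fuel, and they feed acetyl-CoA into the citric acid cycle without passing through glycolysis or pyruvate dehydrogenase.

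Library totals ran from 13440230 to 22309504 counts, and the members took 0.905% to 1.04% of them. Levels are given as CPM, which are counts scaled to a common TMM-adjusted library size, and in lists of 4 values the animals follow the order of the heat map. Kcna1, the targeted gene, lay at 116 to 129.7 CPM in standard-diet wild type and at 107 to 130.1 CPM in ketogenic-diet wild type. It lay at 43.4 to 47.2 CPM in ketogenic-diet knockouts, and at 46.4, 44.6 and 47.0 CPM in 3 libraries of the standard-diet knockout. The library labelled knockout, standard diet, tag KC888LL, stood between the genotypes at 82.0 CPM. KC913RR, a ketogenic-diet knockout, stood apart from the rest of its group: it was the highest or the lowest there for 63.5% of all tested genes, beside 42.3% to 61.1% for the other 15 libraries in their groups. Ddx3y, a Y-linked gene, was expressed in 1 library of standard-diet wild type, 2 of the standard-diet knockout (KC872RL and KC873RR), 1 of ketogenic-diet wild type and 0 of the ketogenic-diet knockout.

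Cell type markers also moved with the groups. The summed level of 6 oligodendrocyte markers was 3917 to 6039.8 CPM in standard-diet wild type and 4849 to 5315 CPM in standard-diet knockouts, and 3236 to 4093 CPM in ketogenic-diet wild type and 1870.3 to 3495 CPM in ketogenic-diet knockouts. All 6 were called lower by edgeR on the ketogenic diet in the knockout, with a median log2 fold change of -0.92, beside 1.16% of all tested genes called. Sums of 6 microglial markers were 500.5 CPM in KC872RL and 506 CPM in KC873RR, against 225 to 276 CPM in the other 14 libraries. The same 2 libraries had the highest sums of 7 astrocyte markers, 6661 and 6343 CPM, against 4132 to 5717 CPM elsewhere. Sums of 6 endothelial markers were 126 to 153 CPM over all 16 libraries. Those of 6 neuronal markers were 3489 to 4549.7 CPM, lowest in KC873RR and KC872RL. Sums of 5 blood markers were 17.4 to 32.5 CPM in ketogenic-diet knockouts and 42.7 to 113 CPM in the other groups. Those of 4 choroid plexus markers were 30.9 to 47.7 CPM in ketogenic-diet knockouts and 42.5 to 536 CPM in standard-diet knockouts. In wild type they ran from 31.6 to 1029.1 CPM on the standard and from 28.6 to 1013 CPM on the ketogenic diet. No marker of neurons, astrocytes, oligodendrocytes, microglia or endothelium was at 0 in any library. The part of these differences in the results below was not tested, and in such bulk tissue fewer cells of a type and less RNA per cell cannot be told apart.

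In the knockout the diet was accompanied by a lower level of the glucose transporter Slc2a1 and a higher level of the liver-type phosphofructokinase Pfkl, and these were the 2 members called in that comparison (edgeR quasi-likelihood test, Benjamini-Hochberg adjusted p under 0.05). Slc2a1 fell by 28.4%, a log2 fold change of -0.48, and Pfkl rose by 36.5%, a log2 fold change of 0.45. Among all tested genes 1.16% were called in this comparison. DESeq2 called 7 members there (20.6%), beside 3.88% of all genes, and limma-voom 2, beside 0.836%. With only the groups compared in the fit, edgeR called 0 members, beside 0.0535% of all genes. At an unadjusted p under 0.05 the ketogenic and standard diets differed in the knockout for 12 of the 34 members (35.3%), 8 higher and 4 lower, against 16.9% of all genes. The groups did not overlap for 5 members, against 6.39% of all genes: Slc2a1 was lower and Slc2a3, Hk1, Pfkl and Pfkp were higher in all 4 animals on the ketogenic diet. Over the 34 members 21 were higher and 13 lower, with a median log2 fold change of 0.03. Over all genes 51.5% were higher, with a median of 0.01.

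In wild type the same change of diet gave 0 called members by edgeR, DESeq2 and limma-voom, which called 0.0114%, 0.0687% and 0% of all genes. There was 1 member with an unadjusted p under 0.05, beside 5.46%. That member was Slc16a7, the lactate transporter MCT2. Slc2a3 and Slc16a7 were lower in all 4 animals on the ketogenic diet, so 2 members had groups without overlap, beside 4.88% of all genes. Of the 34 members 11 were higher and 23 lower, with a median log2 fold change of -0.02, beside 49.9% of all genes higher. Averaged over the genotypes, the diet gave 1 called member, Pfkl, with a log2 fold change of 0.27 ± 0.06 (SE) and an edgeR adjusted p of 0.0364, beside 0.899% of all genes. With single libraries omitted in turn, Pfkl kept that call in 5 of 16 fits (log2 0.22 to 0.30, adjusted p 0.014 to 0.104), and lost it in the libraries with Xist and without Ddx3y, at 0.19 with an adjusted p of 0.573. Slc2a1 did not pass the test there, at -0.29 ± 0.07 (SE) and an edgeR adjusted p of 0.0523, while 6 of 25 alternatives called it.

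The genotype comparison gave 0 called members on either diet by edgeR, DESeq2 and limma-voom, where edgeR called 0.00572% of all genes on the standard diet and 0.0172% on the ketogenic diet. The shares called by DESeq2 were 0.967% and 0.258%, and those by limma-voom 0.0114% and 0.0286%. On the standard diet 5 members had an unadjusted p under 0.05 (14.7%, beside 14.3% of all genes), Slc2a1 and Pdk1 higher and Slc2a3, Pfkl and Eno1 lower. On the ketogenic diet 7 members did (20.6%, beside 9.22%), Slc2a3, Pfkp, Aldoa, Slc16a7 and Pdk1 higher and Ldhb and Pdp1 lower. Groups without overlap were found for 3 members on the standard diet, Pfkp, Eno1 and Mpc2, all lower in the knockout, beside 5.86% of all genes. There were also 3 on the ketogenic diet, Slc2a3, Pfkm and Pkm, all higher in the knockout, beside 3.98%. Of the 34 members, 13 on the standard diet and 26 on the ketogenic diet were higher in the knockout, with median log2 fold changes of -0.01 and 0.08, beside 51.1% and 51.0% of all genes higher. Averaged over the diets 0 members were called by edgeR, beside 0.0973% of all genes, 0 by limma-voom, beside 0.218%, and 1, Pdk1, by DESeq2, which called 2.38% of all genes. There 8 members had an unadjusted p under 0.05, beside 15.8%.

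The interaction asks whether the response to diet differed between the genotypes. It was called for 0 members and for 0% of all genes by edgeR, and for 0 members by DESeq2 and limma-voom, beside 0.0401% and 0% of all genes. The smallest edgeR adjusted p among the members was 0.654. At an unadjusted p under 0.05 there were 8 members (23.5%), beside 7.48% of all genes. Slc2a1 was the 1 of these with a negative interaction, and Slc2a3, Hk1, Pfkl, Pfkp, Aldoa, Eno1 and Ldha had positive ones; a diet effect called in the knockout and not in wild type is thus not shown to differ between them. The 4 pairwise comparisons share groups: the standard-diet knockout, for example, enters both the diet comparison in the knockout and the genotype comparison on the standard diet.

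**Figure D1:**
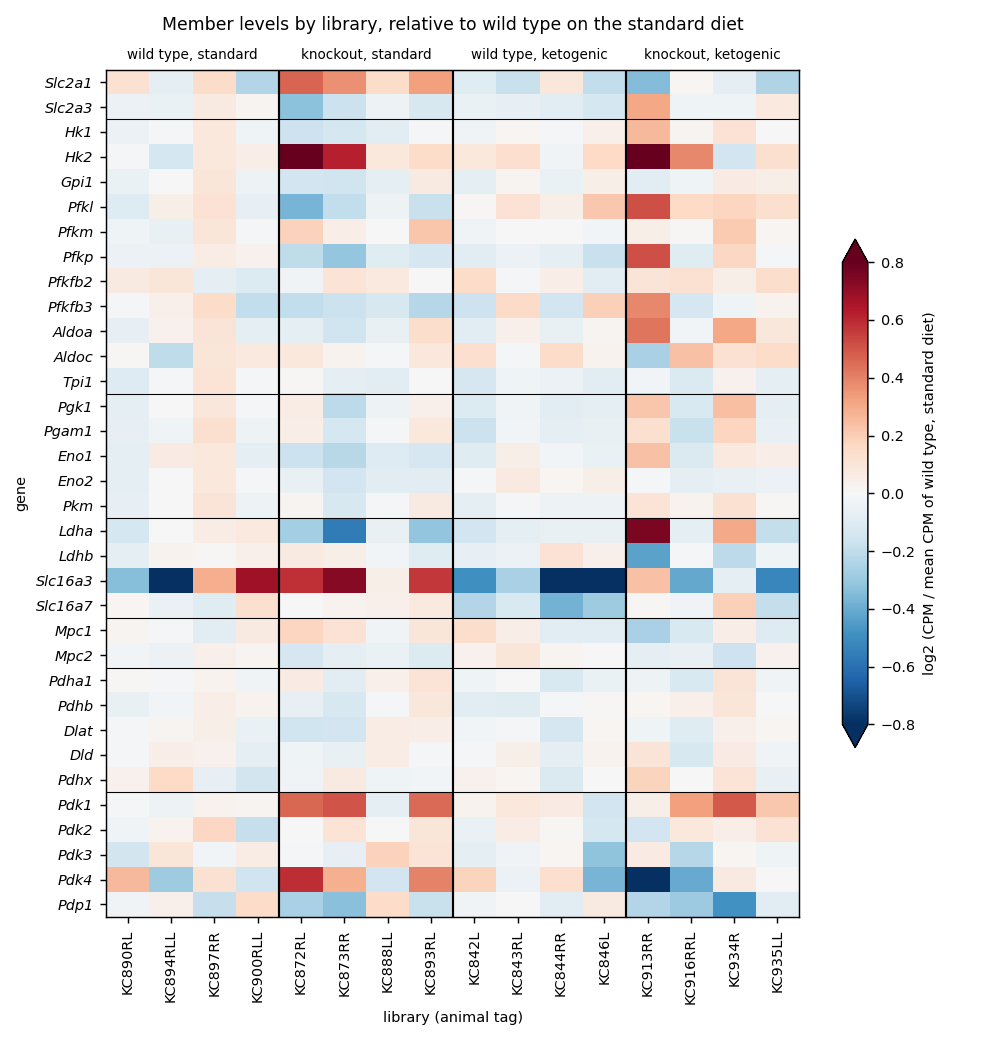
Level of each of the 34 members (rows, grouped by role) in each of the 16 libraries (columns, grouped by genotype and diet and named by animal tag), as log2 of CPM over the mean CPM of standard-diet wild type, with colours that saturate at the ends of the scale. The Hk2, Pfkl, Pfkp and Ldha rows are red in KC913RR, and the Slc2a1 row is red in standard-diet knockouts.

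Promoter sequence is shown for the 2 called members and for Ldha, the member with the highest log2 fold change on the ketogenic diet in the knockout. They are RefSeq windows on GRCm38.p6 from the bases before the start in RefSeq, written 5′ to 3′ on the gene's strand and cut where GENCODE M21 annotates an untranslated region, apart from the last letters of a match that crosses into it. The Pfkl and Ldha stretches lie inside the span that GENCODE M21 gives for these genes, downstream of its start. Capitals mark the letters ACGTG, a common core of the sites of hypoxia-inducible factors, and its reverse complement CACGT, which were searched on both strands and overlap each other in CACGTG.
Slc2a1, chr4:119108495-119108713, plus strand: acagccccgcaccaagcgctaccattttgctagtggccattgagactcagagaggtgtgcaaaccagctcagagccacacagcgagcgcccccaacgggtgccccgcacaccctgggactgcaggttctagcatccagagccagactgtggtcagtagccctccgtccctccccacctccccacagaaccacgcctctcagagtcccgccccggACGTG
Pfkl, chr10:78009808-78010004, minus strand: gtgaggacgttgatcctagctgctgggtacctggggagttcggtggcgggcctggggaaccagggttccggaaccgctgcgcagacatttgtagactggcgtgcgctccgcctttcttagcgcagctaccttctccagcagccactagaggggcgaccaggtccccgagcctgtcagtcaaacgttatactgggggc
Ldha, chr7:46845554-46845803, plus strand: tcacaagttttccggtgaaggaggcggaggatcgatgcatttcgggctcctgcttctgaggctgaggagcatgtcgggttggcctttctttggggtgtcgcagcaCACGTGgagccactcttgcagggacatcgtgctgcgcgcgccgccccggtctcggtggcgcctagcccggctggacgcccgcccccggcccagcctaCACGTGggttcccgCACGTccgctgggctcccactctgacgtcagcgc
The Slc2a1 stretch held 1 match, the Pfkl stretch 0, and the Ldha stretch 5 matches in 3 runs, since each CACGTG counts once on each strand. RefSeq gives Ldha a second window, at chr7:46846832-46847081, which held 0 matches and is not printed. In whole windows of 300 bases, 16 of the 31 members with an entry in the promoter set used here held a match in at least 1 window (51.6%), beside 21.8% of 27025 genes. By window the shares were 41.7% of 48 member windows and 19.6% of 32851 windows. That promoter set held no entry for Slc2a3, Slc16a7 and Pdp1. A match describes the letters of the window and is not a site of binding.

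Levels can be set beside each other between genes only per length. In CPM per kilobase of annotated exon, averaged over the 16 libraries, aldolase A (Aldoa) was highest at 493, followed by pyruvate kinase (Pkm) at 253. Neuronal enolase (Eno2, 175), triosephosphate isomerase (Tpi1, 173) and the astrocyte-rich aldolase C (Aldoc, 170.5) came next, and the lowest-to-highest ranges of these 3 over the libraries overlapped. Among enzymes with several isoforms, Hk1 (55.8) was far above Hk2 (1.60), and muscle-type phosphofructokinase Pfkm (128) was above Pfkl (48.3) and platelet-type Pfkp (20.4). Ldhb (129) was above Ldha (61.8) on this scale, although their ranges, 98.0 to 143 and 42.5 to 106, overlapped, and in KC913RR the order was reversed, with Ldha at 106 and Ldhb at 98.0. The transporters Slc2a1 (30.9) and Slc2a3 (24.4) had overlapping ranges. Of the pyruvate dehydrogenase kinases Pdk2 (34.3) was highest, Pdk3 (10.4) and Pdk1 (8.79) overlapped, and Pdk4 (3.65) was lowest. The monocarboxylate transporter MCT4 gene Slc16a3 was the lowest member, at 0.519 CPM per kilobase and only 16 to 83 counts per library. With the longest transcript in place of the exon union, 24 of the 34 ranks changed, by at most 5 places.

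**Figure D2:**
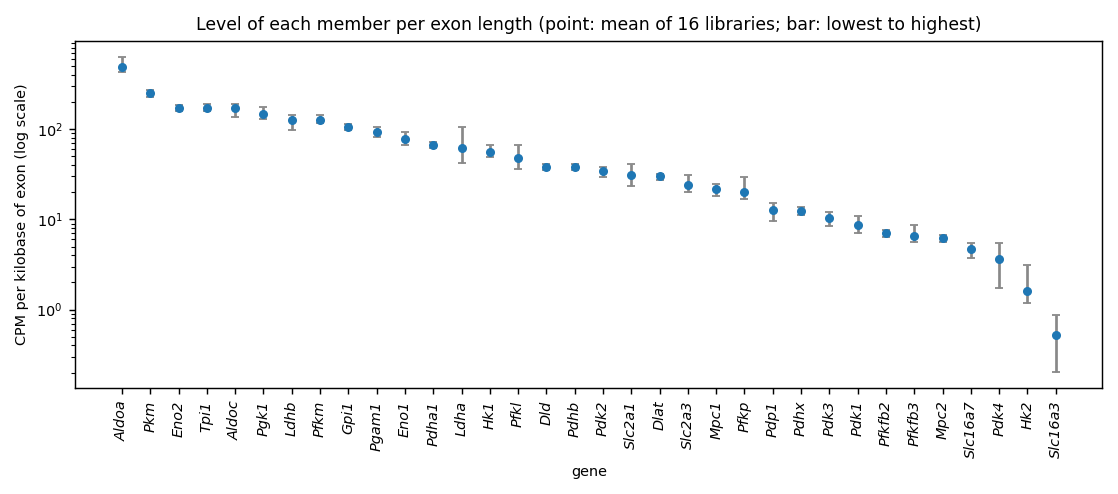
CPM per kilobase of exon (log scale) of each member, as the mean of the 16 libraries (point) with the lowest and the highest library (bar). Aldoa is highest at 493 and Slc16a3 lowest at 0.519.

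Slc2a1 (chr4:119108711-119137983, plus strand, positions from GENCODE M21 on GRCm38) stood at 146, 136, 117 and 133 CPM in standard-diet knockouts. Knockouts on the ketogenic diet had 83.1, 107, 101 and 89.6 CPM, below every value of the standard diet. Wild type had 115, 101, 117 and 89.9 CPM on the standard diet and 98.8, 93.3, 113 and 92.4 CPM on the ketogenic diet. Values were highest in standard-diet knockouts, but KC888LL lay just below KC897RR of standard-diet wild type, so these 2 groups overlapped, as did the other 3 groups with one another. An exon of Slc2a1 overlaps Gm12868 on the opposite strand, and since the use of strand in counting is not known, its counts are uncertain where reads were shared. The log2 fold change for diet was -0.48 ± 0.10 (SE) in the knockout, with an edgeR adjusted p of 0.0222, and -0.09 ± 0.10 in wild type, with 0.997. On the standard diet the knockout against the wild type gave 0.33 ± 0.10, with an adjusted p of 0.202, and KC888LL was the lowest of its group at 117 CPM. Without KC888LL this became 0.38 with an adjusted p of 0.0311.

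The fall of Slc2a1 with diet in the knockout depended on single libraries for its call. Leaving out KC872RL gave -0.43 with an edgeR adjusted p of 0.101, KC873RR gave -0.47 with 0.0742, and KC913RR gave -0.42 with 0.0645. In the libraries with Xist and without Ddx3y, 2 of the standard diet (KC888LL and KC893RL) and 4 of the ketogenic diet in the knockout, it was -0.39 with an adjusted p of 0.554. Sums of endothelial markers were 136 to 153 CPM in standard-diet and 137 to 149.7 CPM in ketogenic-diet knockouts. For diet in the knockout 4 of these 6 markers were lower and 2 higher, with log2 fold changes from -0.49 to 0.15. An unadjusted p under 0.05 was found for 2 of the lower ones, beside 16.9% of all genes, and 0 were called by edgeR, beside 1.16%. KC872RL and KC873RR, with Slc2a1 at 146 and 136 CPM, were the libraries with the highest astrocyte and microglial sums. KC893RL of the same group had Slc2a1 at 133 CPM with lower sums, 4759 CPM for astrocytes and 260 CPM for microglia. KC913RR had the lowest Slc2a1 of the study, 83.1 CPM, with an astrocyte sum of 5717 CPM. The part of these markers in the result was not tested.

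Slc2a3 (chr6:122727809-122801640, minus strand) differed in the opposite direction in the knockout, where it stood at 145, 161, 176 and 167 CPM on the standard diet and at 225, 178, 178 and 192 CPM on the ketogenic diet. These groups did not overlap, by a margin of about 1 CPM between KC888LL and KC934R. Wild type had 176, 175, 191 and 185 CPM and, on the ketogenic diet, 175, 174, 171 and 165 CPM. The log2 fold change for diet was 0.25 ± 0.07 (SE) in the knockout with an edgeR adjusted p of 0.0986 and -0.09 ± 0.07 in wild type with 0.987. Neither passed that test. Of 18 alternatives 3 called the knockout value, 1 of them a fit without a single library. Over the 18 it was 0.17 to 0.30, with adjusted p-values of 0.0281 to 0.843. The ratio of Slc2a3 to Slc2a1 in CPM, which sets both transporters in 1 number, averaged 1.74 ± 0.229 (SD, n = 4) in standard-diet wild type, 1.24 ± 0.213 in standard-diet knockouts, 1.74 ± 0.148 in ketogenic-diet wild type and 2.07 ± 0.473 in ketogenic-diet knockouts. It was 0.994 to 1.51 in standard-diet knockouts, below every other library of the study. The margin was narrow, between 1.51 in KC888LL and 1.52 in KC844RR of ketogenic-diet wild type.

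The phosphofructokinases catalyse the committed step of glycolysis. Pfkl (chr10:77986947-78010083, minus strand) stood at 240.5, 272, 302 and 275 CPM in standard-diet knockouts and at 446, 348, 352 and 341 CPM on the ketogenic diet. The lowest ketogenic value, 341 CPM, was above the highest standard value, 302 CPM, and KC913RR was far above the rest. Wild type had 289.7, 322, 337 and 298 CPM on the standard diet and 314, 338, 321 and 361 CPM on the ketogenic diet, which overlapped. The log2 fold change for diet was 0.45 ± 0.09 (SE) in the knockout with an edgeR adjusted p of 0.0179, and 0.10 ± 0.09 in wild type with 0.988. Without KC913RR it was 0.35 in the knockout and kept its call at an adjusted p of 0.0337. Without KC872RL it was 0.39 with 0.0753, and without KC873RR 0.45 with 0.0592, neither of which passed the test. In the libraries with Xist and without Ddx3y it was 0.36 with 0.48.

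Pfkp (chr13:6579768-6648777, minus strand) was likewise lowest in standard-diet and highest in ketogenic-diet knockouts. It stood at 241, 224, 259 and 253 CPM in standard-diet knockouts and at 396, 259.6, 311 and 275 CPM on the ketogenic diet, against 268, 268, 289 and 284 CPM and 262, 268, 263 and 245 CPM in wild type on the standard and the ketogenic diet. The knockout groups were separated by less than 1 CPM, between KC888LL and KC916RRL, while KC913RR reached 396 CPM. The log2 fold change for diet in the knockout was 0.35 ± 0.10 (SE) with an edgeR adjusted p of 0.0837, which did not pass the test. Without KC913RR it was 0.21 with an adjusted p of 0.166. Of 18 alternatives 4 called it, 2 of them fits without a single library, and the adjusted p-values ran from 0.0226 to 0.831. For the muscle isoform Pfkm the log2 fold change for diet in the knockout was -0.04 ± 0.06, and the levels there, 413 to 482 and 416 to 478 CPM, overlapped. Exons of Pfkp and of Pfkm overlap other genes of the table, Pitrm1 in the first case and Senp1 and Gm26513 in the second, so their counts are uncertain where reads were shared.

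**Figure D3:**
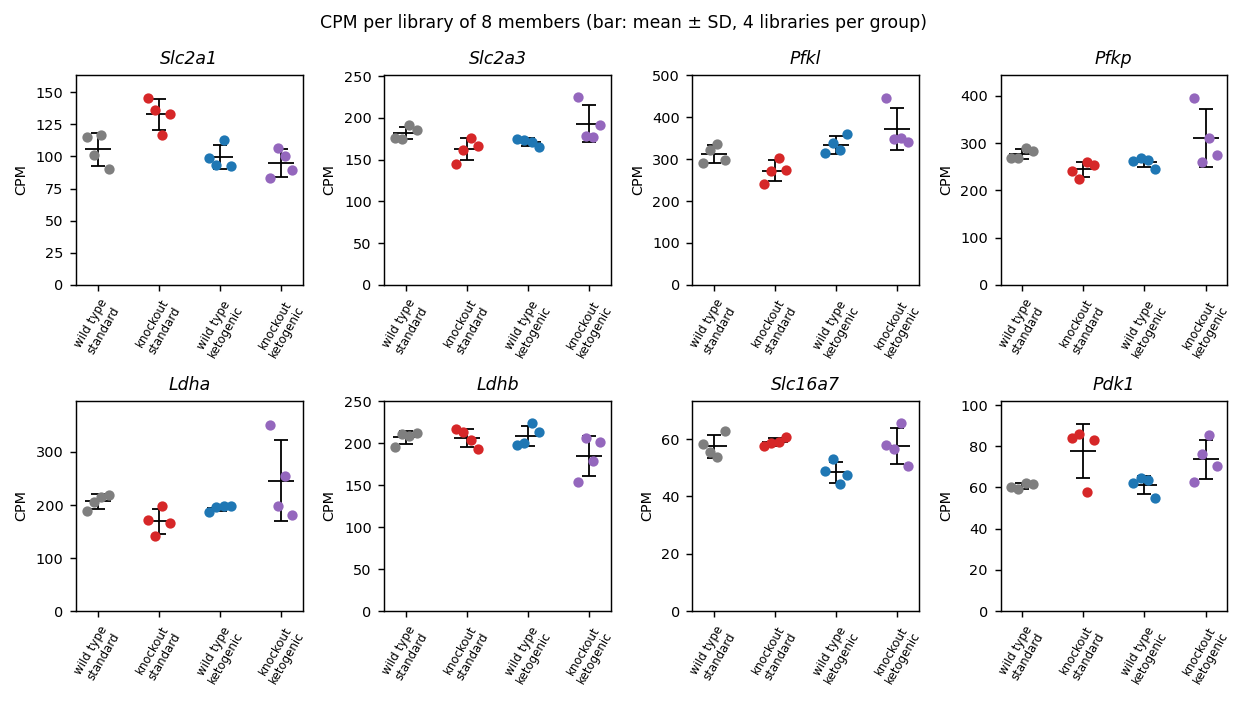
CPM of 8 members in each library (points), with the mean and SD of the 4 libraries of each group (bars), axes starting at 0. Slc2a1 is highest in standard-diet knockouts (117 to 146 CPM), and a single point, KC913RR, stands above the others of the ketogenic-diet knockout for Pfkl, Pfkp and Ldha.

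Hexokinase traps glucose in the cell by phosphorylation. Hk1 (chr10:62268855-62379908, minus strand), the main brain isoform, stood at 423, 432, 449 and 469.6 CPM in standard-diet knockouts and at 567, 481, 515 and 474 CPM on the ketogenic diet. Wild type had 459.7, 472, 504 and 464 CPM on the standard and 466, 479.9, 469 and 487 CPM on the ketogenic diet. The knockout groups did not overlap, and the values of wild type lay across the gap between them. The log2 fold change for diet in the knockout was 0.20 ± 0.06 (SE) with an edgeR adjusted p of 0.102, and DESeq2 called it at 0.21 with 0.0226. Hk2, the inducible isoform, was low, at 7.14 to 8.35 CPM in standard-diet wild type, and reached 13.8 and 12.1 CPM in KC872RL and KC873RR and 18.9 CPM in KC913RR. Its log2 fold change for the knockout averaged over diets was 0.43 ± 0.17 (SE) with an adjusted p of 0.227; without KC913RR it was 0.25 with an adjusted p of 0.282. The other 13 libraries lay between 7.07 and 10.2 CPM.

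The remaining upper glycolytic enzymes were not called in any contrast. Pfkfb3, which makes the phosphofructokinase activator fructose-2,6-bisphosphate, had a log2 fold change for diet of 0.25 ± 0.11 (SE) in the knockout with an adjusted p of 0.23, and KC913RR was again highest at 64.9 CPM against 45.4 to 50.6 CPM in its group. Without KC913RR the log2 fold change of Pfkfb3 was 0.13 with an adjusted p of 0.515. Pfkfb2, of the same enzyme family, had 0.06 ± 0.06. Aldoa, the most abundant member, had 0.25 ± 0.09 with an adjusted p of 0.154, with group ranges of 1245 to 1538 and 1371 to 1873 CPM that overlapped. Aldoc (0.03), Tpi1 (-0.01) and glucose-6-phosphate isomerase Gpi1 (0.08) had log2 fold changes for diet in the knockout within 0.10 of 0. By count, 9 of the 11 upper glycolytic members had a higher level in ketogenic-diet than in standard-diet knockouts, with a median of 0.08, beside 51.5% of all tested genes higher. By edgeR 1 of the 11 was called (9.09%), beside 1.16% of all genes.

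In lower glycolysis all 5 members had a positive log2 fold change for diet in the knockout, with a median of 0.08, beside 51.5% of all tested genes higher. By edgeR 0 of the 5 were called, beside 1.16% of all genes. Enolase 1 (Eno1), the enzyme of the penultimate step, had 0.23 ± 0.07 (SE) with an edgeR adjusted p of 0.103, and ranges of 364 to 395 CPM on the standard and 392 to 499 CPM on the ketogenic diet. Of 18 alternatives 2 called Eno1: DESeq2, at 0.23 with an adjusted p of 0.0302, and the fit without KC888LL, at 0.25 with 0.0467. Its near-identical copy Eno1b held 989 to 1761 counts per library beside 5244 to 9000 for Eno1, and how reads were shared between them is uncertain. Pkm (chr9:59656368-59679375, plus strand), which makes pyruvate, stood at 1203, 1262, 1352 and 1224 CPM in standard-diet wild type and 1281, 1155, 1253 and 1325 CPM in standard-diet knockouts. With the ketogenic diet it stood at 1197, 1250.5, 1226 and 1226 CPM in wild type and at 1358, 1286, 1370.5 and 1268 CPM in the knockout, so on that diet the genotypes did not overlap. Its log2 fold change for genotype on the ketogenic diet was 0.11 ± 0.05 (SE), with an adjusted p of 0.564. Phosphoglycerate kinase Pgk1 (0.11), phosphoglycerate mutase Pgam1 (0.02) and Eno2 (0.05) had small log2 fold changes for diet in the knockout.

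Lactate dehydrogenase is a tetramer of A subunits, which are typical of tissues that make lactate, and B subunits, typical of those that burn it. Ldha (chr7:46841475-46855627, plus strand) stood at 172, 141, 199 and 166 CPM in standard-diet knockouts and at 349.9, 197, 255 and 182 CPM on the ketogenic diet. KC913RR was the highest library and KC934R the next, while KC916RRL lay inside the range of wild type and KC935LL just below it. Wild type had 188, 206, 216 and 219 CPM on the standard diet and 187, 196, 199 and 198 CPM on the ketogenic diet. For diet in the knockout the log2 fold change was 0.54 ± 0.16 (SE) with an edgeR adjusted p of 0.114. Leaving out KC913RR lowered it to 0.32 with an adjusted p of 0.198, and leaving out KC888LL raised it to 0.63 with 0.0473. It was also called without KC935LL, at 0.66 with 0.0447, and without both KC888LL and KC913RR, at 0.41 with 0.0322. DESeq2 called it at 0.54 with an adjusted p of 0.016.

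Ldhb (chr6:142490249-142507957, minus strand) stood at 196, 211, 208 and 212 CPM in standard-diet wild type and 217, 213, 203 and 193 CPM in standard-diet knockouts. With the ketogenic diet it stood at 197, 199.8, 224 and 213 CPM in wild type and 154, 206, 179 and 202 CPM in the knockout. The lowest values of the study were those of KC913RR and KC934R, the libraries with the highest Ldha. The genotype comparison on that diet gave -0.17 ± 0.08 (SE) with an adjusted p of 0.511, and without KC913RR -0.09 with an adjusted p of 0.821. The ratio of Ldha to Ldhb in CPM averaged 1.00 ± 0.0378 (SD, n = 4) in standard-diet wild type, 0.822 ± 0.132 in standard-diet knockouts, 0.937 ± 0.0385 in ketogenic-diet wild type and 1.39 ± 0.634 in ketogenic-diet knockouts. In the ketogenic-diet knockout it was 2.27 in KC913RR and 1.43 in KC934R and lay between 0.902 and 0.958 in the other 2 animals, so the high mean rests on 2 of 4 libraries. KC913RR and KC934R also had the highest astrocyte sums of their group, 5717 and 5440 CPM against 4193 and 4219.9 CPM. Their oligodendrocyte sums were the lowest, 1870.3 and 2477 CPM against 2895 and 3495 CPM. Among standard-diet knockouts the direction differed: KC872RL and KC873RR had still higher astrocyte sums, 6661 and 6343 CPM, with Ldha at only 172 and 141 CPM. The part of cell type markers in the values of Ldha and Ldhb was not tested.

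Monocarboxylate transporters carry lactate, pyruvate and ketone bodies across membranes. Slc16a7 (chr10:125219270-125389465, minus strand), which encodes the neuronal transporter MCT2, stood at 58.1, 55.4, 53.8 and 62.9 CPM in standard-diet wild type and at 48.9, 52.9, 44.2 and 47.3 CPM on the ketogenic diet, without overlap. In the knockout it stood at 57.5, 58.6, 59.1 and 60.7 CPM and 57.9, 56.5, 65.6 and 50.5 CPM on the standard and the ketogenic diet, which overlapped. The ketogenic-diet wild type was thus the low group. The diet comparison in wild type gave -0.25 ± 0.07 (SE), with an unadjusted p of 0.00329 and an edgeR adjusted p of 0.761. The genotype comparison on the ketogenic diet gave 0.25 ± 0.07, with 0.0031 and 0.404, and the interaction 0.22 ± 0.11, with 0.0522 and 0.676. Slc16a3, which encodes the astrocytic transporter MCT4, stood at 2.20, 1.08, 3.41 and 4.44 CPM in standard-diet wild type and 4.17, 4.60, 2.87 and 4.12 CPM in standard-diet knockouts. With the ketogenic diet the values were 1.98, 2.32, 1.53 and 1.46 CPM in wild type and 3.28, 2.09, 2.65 and 1.94 CPM in the knockout. Its log2 fold change for diet averaged over genotypes was -0.63 ± 0.22 with an adjusted p of 0.19, at counts of 83 or fewer per library. Slc16a1, the gene of the widely expressed transporter MCT1 and not a member, had -0.15 ± 0.09 for diet in the knockout and -0.01 ± 0.09 in wild type, with adjusted p-values of 0.436 and 0.998.

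Pyruvate enters mitochondria through a carrier made of Mpc1 and Mpc2. Mpc1 had a log2 fold change for diet in the knockout of -0.19 ± 0.07 (SE) with an adjusted p of 0.183, with ranges of 45.0 to 51.6 CPM on the standard and 38.3 to 47.6 CPM on the ketogenic diet. Its pseudogene copy Mpc1-ps held 92 to 155 counts per library beside 563 to 1025 for Mpc1, so the level of Mpc1 is uncertain. On the standard diet Mpc2 was lower in all 4 libraries labelled knockout, KC888LL included, than in all 4 of wild type, at 42.3 to 44.6 against 45.0 to 47.7 CPM. The log2 fold change was -0.09 ± 0.05 with an edgeR adjusted p of 0.441.

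The 5 genes of the pyruvate dehydrogenase complex showed small differences with genotype and diet. Pdha1 (chrX:160122209-160138413, minus strand), the catalytic subunit that the kinases phosphorylate, stood at 255, 252, 258 and 248 CPM in standard-diet wild type and 264, 238, 260.2 and 273 CPM in standard-diet knockouts. The ketogenic-diet values were 247, 254, 232 and 244 CPM in wild type and 246, 233, 272 and 248 CPM in the knockout, so all 4 groups overlapped. Its log2 fold changes were -0.05 ± 0.06 (SE) for diet in the knockout, -0.05 ± 0.06 for diet in wild type, 0.03 ± 0.06 for genotype on the standard diet and 0.03 ± 0.06 for genotype on the ketogenic diet. Over Pdha1, Pdhb, Dlat, Dld and Pdhx the log2 fold changes lay between -0.05 and 0.07 for diet in the knockout, between -0.05 and -0.00 for diet in wild type, between -0.05 and 0.03 for genotype on the standard diet and between 0.01 and 0.09 for genotype on the ketogenic diet. None of the 5 had an unadjusted p under 0.05 in any of the 7 contrasts, beside 5.46% to 16.9% of all genes. By edgeR 0 were called, beside 0% to 1.16% of all genes.

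The kinases of the complex hold it inactive by phosphorylation. Pdk1, which hypoxia induces (chr2:71873224-71903858, plus strand) stood at 83.8, 86.1, 57.9 and 83.1 CPM in standard-diet knockouts, where the low value, 57.9 CPM, belonged to KC888LL. Wild type stood at 60.4, 59.0, 62.1 and 61.7 CPM on the same diet and at 62.0, 64.6, 63.6 and 54.7 CPM on the ketogenic diet, on which the knockout had 62.8, 76.4, 85.4 and 70.5 CPM. All libraries labelled knockout apart from KC888LL and KC913RR were above every wild-type library. Knockout against wild type gave 0.35 ± 0.11 (SE) on the standard diet with an edgeR adjusted p of 0.202, 0.27 ± 0.11 on the ketogenic diet with 0.477, and 0.31 ± 0.08 averaged over the diets with 0.0992, so none was called. Without KC888LL, whose Kcna1 level lay between the genotypes, the standard diet value was 0.47 with an adjusted p of 0.00365 and the average 0.37 with 0.00187. In the libraries with Xist and without Ddx3y the standard diet value was 0.21 with an adjusted p of 0.999, and the average was 0.21 with 0.814. The 2 standard-diet knockouts in that selection are KC888LL and KC893RL, so KC888LL weighs more there. For diet in the knockout Pdk1 had -0.07 ± 0.11 and an adjusted p of 0.777.

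Pdk4 (chr6:5483351-5496309, minus strand), the kinase that rises with fasting and fat use in muscle and other tissues, stood at 19.1, 15.4, 11.4 and 16.6 CPM in standard-diet knockouts and at 6.09, 9.57, 13.3 and 12.6 CPM on the ketogenic diet. These ranges overlapped, and the lowest library was KC913RR. In wild type it stood at 15.1, 10.4, 13.8 and 11.3 CPM and 14.3, 12.3, 13.9 and 9.79 CPM on the standard and the ketogenic diet. The diet gave a log2 fold change of -0.58 ± 0.21 (SE) in the knockout with an adjusted p of 0.184, and of -0.01 ± 0.21 in wild type with 1, so a rise on the ketogenic diet was not detected in either genotype. Pdk2, the most abundant kinase, had -0.02 and -0.03 in the same comparisons, and Pdk3 had -0.10 and -0.10. All 5 regulators, the phosphatase included, had negative values for diet in the knockout, with a median of -0.10, as did 8476 of all 17469 tested genes. By edgeR 0 of the 5 were called, beside 1.16% of all genes.

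The phosphatase Pdp1 (chr4:11958184-11966452, minus strand), which reactivates the complex, stood at 60.3, 63.4, 54.1 and 68.1 CPM in standard-diet wild type and 51.3, 48.8, 68.0 and 54.4 CPM in standard-diet knockouts. With the ketogenic diet it stood at 60.4, 61.3, 57.9 and 64.5 CPM in wild type and 52.3, 50.3, 43.9 and 58.0 CPM in the knockout. KC888LL, at 68.0 CPM, was within the wild type range and above the other 7 libraries labelled knockout. Averaged over the diets the log2 fold change for the knockout was -0.20 ± 0.07 (SE) with an adjusted p of 0.184, and without KC888LL it was -0.26 with 0.0187. In the libraries with Xist and without Ddx3y, where the 2 standard-diet knockouts are KC888LL and KC893RL, it was -0.12 with an adjusted p of 0.832.

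**Figure D4:**
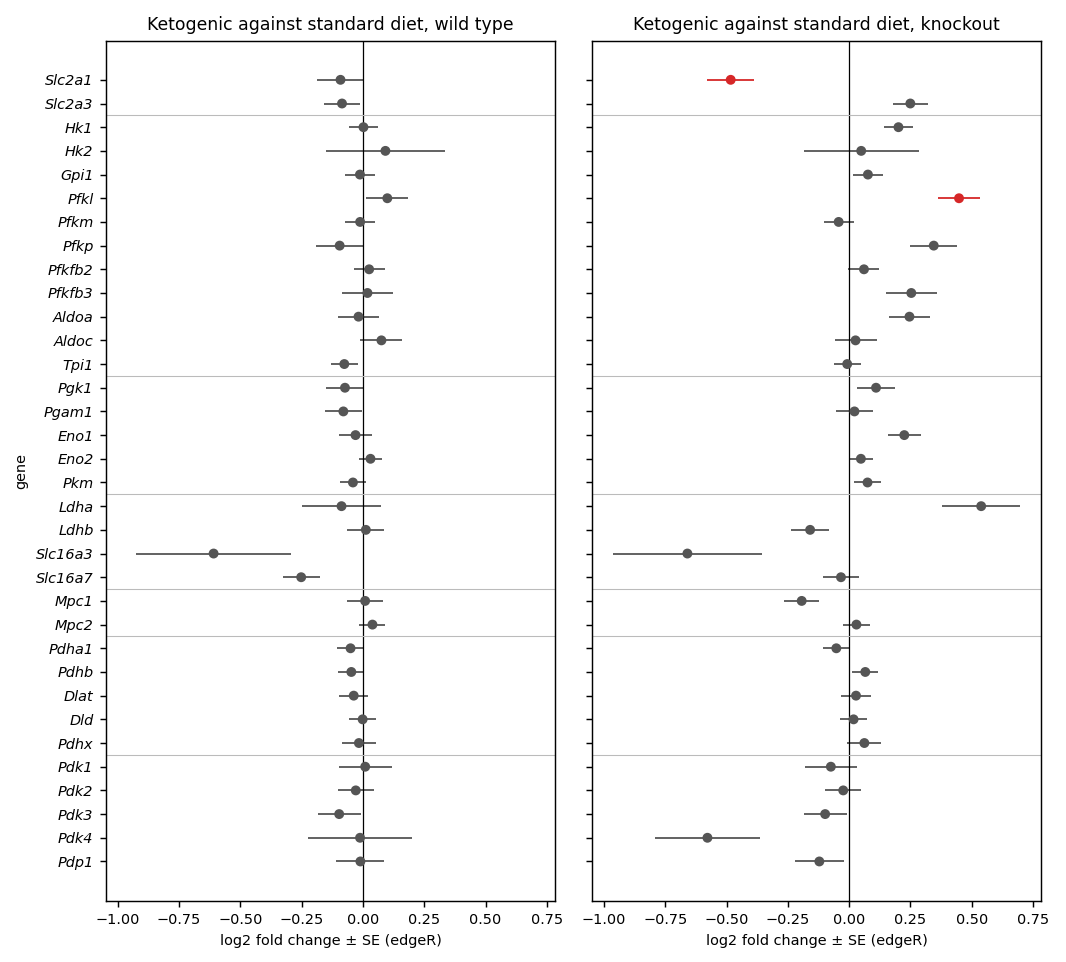
Log2 fold change of the ketogenic against the standard diet (point) with its SE (bar) for each member, in wild type (left) and the knockout (right), with called members in red. Slc2a1 at -0.48 and Pfkl at 0.45 in the knockout are the ones called by edgeR, and no member is called in wild type.

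The spread between animals was widest in ketogenic-diet knockouts, where the median coefficient of variation of the 34 members was 10.3%. It was 6.02% in standard-diet wild type, 6.42% in standard-diet knockouts and 4.41% in ketogenic-diet wild type. KC913RR was the highest of its group for 14 of the 34 members and the lowest for 8, beside 63.5% of all genes at either end. KC897RR, in standard-diet wild type, was at an end of its group more often, highest for 23 members and lowest for 3, beside 52.0% of all genes. In the ketogenic-diet knockout the coefficient ran from 1.87% for Eno2 to 47.2% for Hk2. Without KC913RR the diet comparison in the knockout called 1 member, Pfkl, beside 0.49% of all genes. Without KC888LL it called 6 members (17.6%), beside 6.18% of all genes. It called 0 members without KC872RL or without KC873RR, where 0.158% and 0.26% of all genes were called. With both KC888LL and KC913RR left out it called 5 members (14.7%), beside 5.77% of all genes. The genotype comparison on the standard diet then called 7 members (20.6%), beside 9.98% of all genes.

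Of the members, 6 lie on chromosome 6, which carries Kcna1 at chr6:126640397-126646384. Slc2a3, Tpi1 and Eno2 start within 10 Mb of it, at distances of 3.91, 1.83 and 1.88 Mb. Averaged over the diets their log2 fold changes for the knockout were 0.00, -0.00 and -0.09, with adjusted p-values of 0.977, 0.988 and 0.225. For Slc2a3 that average combined values of opposite sign, -0.16 ± 0.07 (SE) on the standard diet with an edgeR adjusted p of 0.317 and 0.17 ± 0.07 on the ketogenic diet with 0.492. Without KC913RR the latter was 0.09 with 0.809, and in the libraries with Xist and without Ddx3y the former was -0.10 with 0.999. The glycolytic gene left out of the members, Gapdh, starts 1.48 Mb from Kcna1 and had 0.33 ± 0.04 (SE) with an edgeR adjusted p of 0.0026. It was higher in all libraries labelled knockout, at 967 to 1207 CPM, than in all wild-type libraries, at 851 to 947 CPM. Exons of 11 members overlap those of another gene in the table, which leaves their counts uncertain: besides Slc2a1, Pfkp and Pfkm these are Hk1 (Hk1os), Gpi1 (Gm26762), Aldoa (Fam57b), Tpi1 (Spsb2), Mpc1 (4930506C21Rik) and Pdha1 (Map3k15) on the opposite strand, Pkm (Gm49759) on the same strand, and Pfkfb2 on both (Yod1 and Gm29427).

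Around these members, 6 lists of related genes held 90 genes, of which 83 were tested: further isoforms and transporters, gluconeogenesis and pyruvate anaplerosis, the pentose phosphate pathway, glycogen metabolism, the citric acid cycle, and regulators that respond to glucose and oxygen. None of the 83 was called by edgeR in any of the 7 contrasts, beside 0% to 1.16% of all genes. An unadjusted p under 0.05 was found for 4 to 19 of them. For diet in the knockout these were 19 (22.9%, beside 16.9% of all genes), 11 higher and 8 lower, and for genotype on the standard diet 8 (9.64%, beside 14.3%). In the other 5 contrasts the share was 4.82% to 14.5%, beside 5.46% to 15.8% of all genes. For diet in the knockout the smallest adjusted p was 0.081, for the glucose-6-phosphatase gene G6pc3 (-0.31 ± 0.08, SE). In that comparison 15 of 17 citric acid cycle genes were higher, with a median log2 fold change of 0.10, as were 7 of 8 genes of the pentose phosphate pathway, 5 of 15 of glycogen metabolism, 12 of 26 further isoforms and transporters, 2 of 6 of gluconeogenesis and anaplerosis and 4 of 11 regulators. Of all tested genes 51.5% were higher. Txnip, which restrains glucose uptake and rises with glucose, had -0.39 ± 0.21 (SE) in the knockout with an adjusted p of 0.376 and 0.34 ± 0.21 in wild type with 0.974.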

How the data were processed

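Whole-number raw counts per gene for 16 mouse hippocampus libraries were deposited by the authors as 1 table. DESeq2 and the genome build mm10 are named in the submitters' processing notes without their role; the aligner, the counter, the annotation and the use of strand are not given in the sources used here, so counts of overlapping, antisense and near-identical genes are uncertain. Columns carry an animal tag, genotype and diet, and were assigned to groups by these. The members and the gene lists were chosen with earlier results of these data known.

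Counts were fitted with edgeR 4.0.16 in R 4.3.3: filterByExpr by group, TMM scaling, robust quasi-likelihood dispersion, 1 coefficient per group, 12 residual degrees of freedom, two-sided F tests of 7 contrasts, and Benjamini-Hochberg adjustment over the 17469 tested genes. Called means an adjusted p under 0.05. SE is the log2 fold change over the square root of F, and fitted fold changes can differ slightly from ratios of mean CPM. The code of the fit was checked on simulated counts with planted diet differences, equal in both genotypes. These held no outlying libraries and no shifts in cell types, so the check does not bear on the calls reported here. Values in every library are given for members called in any contrast, the 2 members of smallest p in each, and Slc2a1, Slc2a3, Hk1, Ldha, Ldhb, Pkm, Pdk4 and Pdha1. From the lists of related genes, any called gene, Slc16a1 and Txnip were to be named; G6pc3 was named after its values were seen. Groups without overlap are those where every library of one lies above every library of the other.

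Alternatives were DESeq2 1.42.0 and its size factors, limma-voom (limma 3.58.1), no filter, at least 10 counts in every library, no robust estimation, only the groups compared, Xist as a covariate, only libraries whose Xist exceeded 100 CPM while Ddx3y stayed below 10, and each library left out. Leaving out KC888LL and KC913RR together was added after seeing the data. Positions and exon lengths come from GENCODE M21 on GRCm38, which held 49056 of the 49315 identifiers, and promoters from RefSeq. Totals of 13440230 to 22309504 counts gave member counts of 16 (Slc16a3) to 31281 (Aldoa) per library.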

Additional observations from a re-analysis of the deposited data

Results flagged for a closer look

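Of 136 tests of a group of 4 libraries for a single member, 4 had a library whose gap to its neighbour was large for the range of the group (Dixon's ratio above its 95% critical value), and chance alone gives about 1 in 20. Pfkl in the knockout on the ketogenic diet was 446 CPM in KC913RR, with the next library at 352 CPM. Pgam1 in wild type on the standard diet was 205 CPM in KC897RR, with the next at 183 CPM. Pdhx in the knockout on the standard diet was 50.6 CPM in KC873RR, with the next at 47.4 CPM. Pdk1 in the same group was 57.9 CPM in KC888LL, below 83.1 CPM in the next library, and Kcna1 in KC888LL was 82.0 CPM against 44.6 to 47.0 CPM in the other 3.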

How the results depend on the processing

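The number of members called changed with the processing, as did the share of all tested genes called under the same setting, given in brackets. For diet in the knockout, 2 by the settings reported, it was 7 by DESeq2 (3.88%), 5 with KC888LL and KC913RR left out (5.77%), and 0 with Xist as a covariate (0.0401%), in the libraries with Xist and without Ddx3y (0.0169%), or with only the groups compared in the fit (0.0535%). It ranged from 0 to 6 when 1 library was left out, with 0.158% of all genes called in the fit without KC872RL and 6.18% in that without KC888LL. For diet averaged over genotypes, 1 as reported, it was 2 without a filter (0.516%), by DESeq2 (2.47%) and with both libraries left out (3.23%), 0 with Xist as a covariate (0.441%) or in the libraries with Xist and without Ddx3y (0.00563%), and 0 to 2 with 1 library left out, the 2 without KC888LL (2.58%), Pfkl keeping its call in 5 of 16 such fits. For genotype averaged over diets, 0 as reported, it was 1 by DESeq2 (Pdk1; 2.38%), 2 with both libraries left out (6.85%), and 0 to 2 with 1 left out, the 2 without KC888LL (4.96%). For genotype on the standard diet it was 7 with both left out (9.98%) and 0 to 2 with 1 left out, the 2 without KC888LL (5.73%), and on the ketogenic diet 1 with both left out (Pdk1; 0.153%). For the interaction and for diet in wild type it was 0 under every alternative run. The cause of these changes was not tested. Pfkl for diet in the knockout kept its direction in all 18 alternatives (log2 0.35 to 0.51, adjusted p 0.000266 to 0.48) and its call in 13; Slc2a1 kept its direction in 18 (-0.54 to -0.39, adjusted p 0.000582 to 0.554) and its call in 12. The 46 fold changes of single members followed under the alternatives were those with an unadjusted edgeR p under 0.05 in the reported fit. Of these 0 reversed in any alternative, while single alternatives gave 32 calls and removed 24. Being chosen for lying away from 0, and refitted on mostly the same libraries, they were unlikely to reverse, so that count does not measure robustness. No paired analysis was possible because the labels only number different animals within each group and tie no number to a litter, batch or day, and the count columns carry no such numbers. Depth limits Slc16a3, at 16 to 83 counts per library, most.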
